A study of Mus musculus with 4 samples.

Results

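Interferon-stimulated genes are the genes that cells switch on when an interferon reaches them. 40 such genes, chosen by name as interferon signalling factors and interferon-induced effectors, were followed here out of 35580 genes to which the deposited transcripts were assigned. The comparison set Mmp3-positive against Mmp3-negative cells. Both were stromal vascular fraction cells, which remain when adipocytes are removed from digested fat. Mmp3 encodes stromelysin-1, a secreted matrix metalloproteinase. Both groups came from subcutaneous adipose tissue of wild-type C57BL/6 mice and differed only in the Mmp3 label. The labels name a reagent for the separation by a code alone, and the sources used here do not give the age, sex or number of the animals. Each group held 2 libraries of ribosomal RNA-depleted total RNA, numbered by set. No label says whether different animals gave the 2 libraries of a group. The p-values therefore measure only the spread between these libraries, which may be technical.

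Type I interferons bind a receptor on the cell surface whose Janus kinases activate a transcription factor complex, ISGF3, that contains Stat2 and Irf9. ISGF3 binds a DNA element called the interferon-stimulated response element (ISRE). Type II interferon acts through a different element, the gamma-activated site (GAS). The induced proteins sense viral RNA, block translation of viral messages, degrade RNA or hold virus particles at the membrane, and many of them are made at a low tonic level in unstimulated tissue. Stromal cells of fat carry interferon receptors and can respond.

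The 4 libraries held between 17693755 and 20286221 estimated counts, and 14185 genes passed the filter on low counts. Mmp3 followed the labels, with 4161 and 3409 CPM (read counts scaled by TMM to a common library size) in Mmp3-positive cells, against 106 and 131 CPM in Mmp3-negative cells. That is a 32.0-fold difference (SE of its log2 value 0.21; edgeR quasi-likelihood test, adjusted p = 0.00793). All 13 stromal fibroblast markers were detected in every library, and their summed level was 18880 and 25893 CPM in Mmp3-positive cells, against 15513 and 23129 CPM in Mmp3-negative cells. Pan-leukocyte markers summed to 2.74 and 0.916 CPM in Mmp3-positive cells, against 23.5 and 68.2 CPM in Mmp3-negative cells. Most of the Mmp3-negative sum was Laptm5, at 17.7 and 53.5 CPM there and 0 in both Mmp3-positive libraries. Ptprc differed less, with 1.53 and 0.916 CPM in Mmp3-positive cells, against 1.89 and 4.56 CPM in Mmp3-negative cells. The 4 tested markers of this list all had log2 fold changes below 0. In such bulk samples, fewer cells of a type and less RNA per cell cannot be told apart.

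Nearly the whole group was expressed in both kinds of cell. Of the 40 genes, 39 passed the filter, with Ifitm1 the exception. Their summed level was 8583 and 8263 CPM in Mmp3-positive cells, against 7802 and 7316 CPM in Mmp3-negative cells. The means were 8423 ± 227 CPM in Mmp3-positive cells and 7559 ± 343 CPM in Mmp3-negative cells (SD, n = 2 each), a ratio of 1.11. The members summed to at least 7316 CPM in each library and the 6 pan-leukocyte markers to at most 68.2 CPM. Sums over such unlike lists do not tell which cells gave the members' RNA, which was not tested.

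No interferon-stimulated gene passed edgeR's adjusted threshold of 0.05 in either direction. Across all 14185 genes the same test called 1 gene higher (0.00705%) and 2 lower (0.0141%). At an unadjusted edgeR p under 0.05, 6 of 39 members (15.4%) were higher and 2 (5.13%) were lower, beside 5.62% and 3.25% of all genes. The 6 were Isg15, Ddx58, Ifitm3, Gbp3, Eif2ak2 and Bst2, and the 2 were Irf1 and Rsad2. DESeq2's Wald test, run as an alternative, called 5 of 39 higher (12.8%) and 2 lower (5.13%) at an adjusted p under 0.05, beside 5.46% and 4.18% of all genes. Those were the same 8 genes without Isg15. With limma on log2(TPM + 1) no member passed, and neither did any other of the 14185 genes. Both Mmp3-positive libraries stood above both Mmp3-negative libraries for 16 members (41.0%), beside 22.5% of all genes. Both stood below for 3 members (7.69%), beside 17.3% of all genes. For the other 20 members the groups overlapped.

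**Figure D1:**
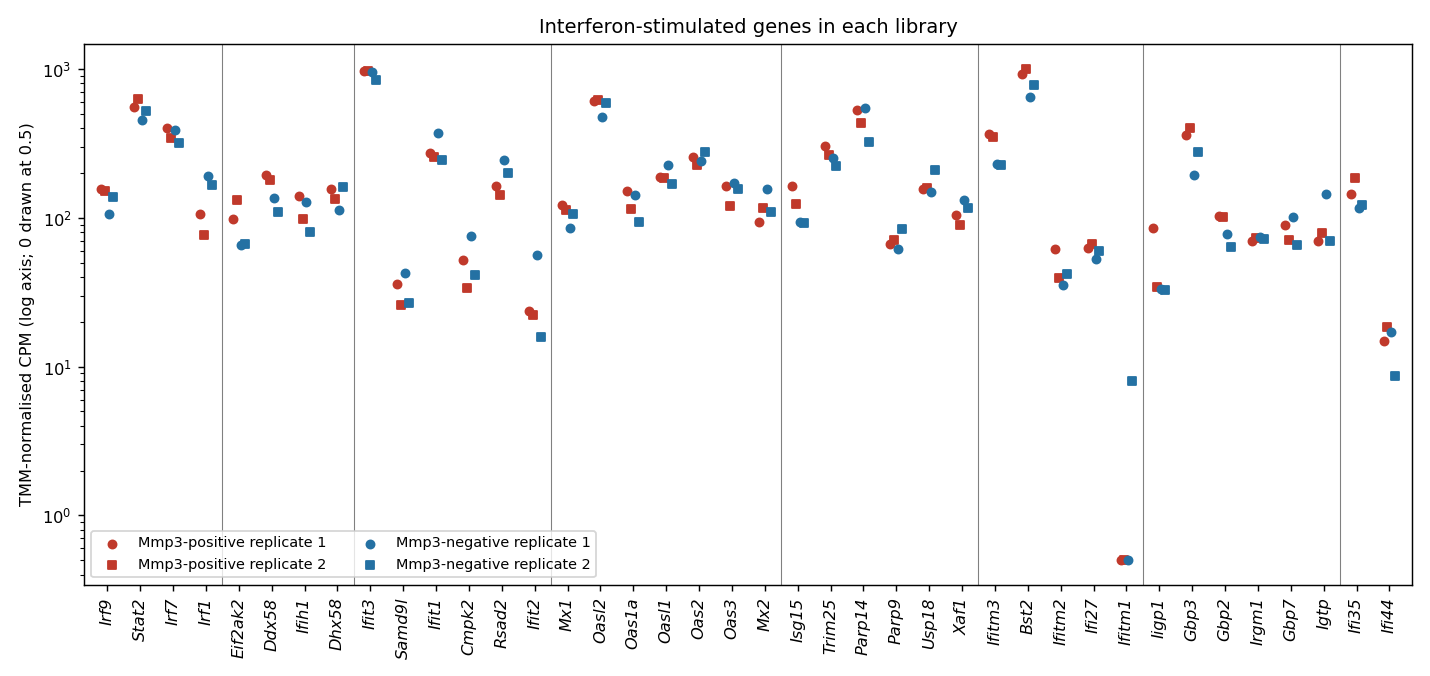
TMM-normalised CPM (log axis) of the 40 interferon-stimulated genes in each library, grouped by role, with Mmp3-positive libraries in red to the left of Mmp3-negative libraries in blue. In most genes the 4 points lie close together, and Ifitm1 was at 0 in 3 libraries and 7.96 CPM in Mmp3-negative replicate 2.

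The differences within the group were small. The median log2 fold change of the 39 genes was 0.14, with quartiles of -0.17 and 0.37, beside a median of 0.02 and quartiles of -0.58 and 0.51 over all genes. It ranged from -0.96 for Irf1 to 0.86 for Iigp1. In edgeR's main fit none of the 39 members reached a log2 fold change of 1 in size, beside 4381 of all genes (30.9%). Irf1 was at -1.01 in DESeq2's Wald test. The members were also more abundant, with a median of 7.08 log2 CPM against 4.24 over all genes, and abundant genes usually vary less between libraries of a group. The median absolute log2 difference between the 2 Mmp3-positive libraries was 0.197 for members and 0.479 for all genes. Between the 2 Mmp3-negative libraries it was 0.303 for members and 0.760 for all genes. The members' median without 1 library lay between -0.0099, when Mmp3-positive replicate 1 was left out, and 0.19, when Mmp3-negative replicate 1 was left out. The median of all genes in those fits was -0.056 and 0.17. Without Mmp3-positive replicate 2 the members' median was 0.18, beside -0.025 for all genes. Without Mmp3-negative replicate 2 it was 0.014, below the 0.17 of all genes, so the members' place relative to all genes depended on the library left out.

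**Figure D2:**
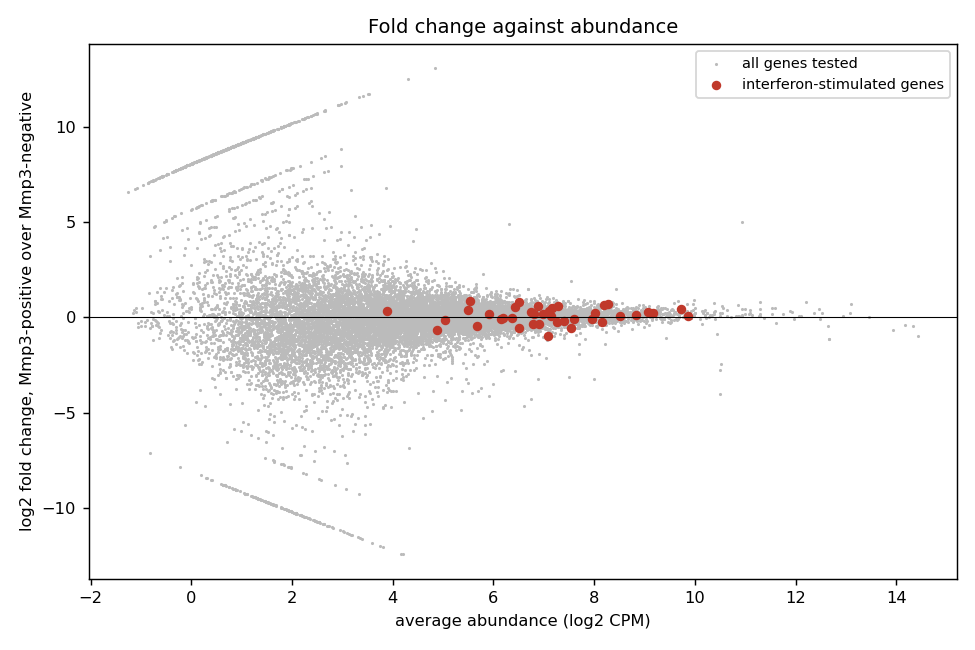
Log2 fold change of Mmp3-positive over Mmp3-negative cells against average abundance (log2 CPM) for all 14185 genes tested in grey and the 39 interferon-stimulated genes in red. The red points lie in the abundant part of the plot, between -0.96 and 0.86.

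The promoters of 6 members illustrate the elements through which the group is known to be driven, taken from the 8 members with an unadjusted p under 0.05 and the abundant Ifit3. They were chosen after the matches were seen, as those with a match in the bases shown. The matches of Ifitm3 and Ddx58, also among the 8, lay past the start site, and Eif2ak2 had one past it and one further upstream. Each line gives the 140 bases just before the RefSeq start site on GRCm38.p6, read 5′ to 3′ on the strand of the gene. Capitals mark letters that match an ISRE-type motif or a GAS-type motif on either strand. The ISRE-type motif searched was TTTC repeated after a gap of 2 bases, and the GAS-type motif was TTCNNNGAA, which reads the same on both strands.
Isg15, chr4:156200819-156200958, minus strand: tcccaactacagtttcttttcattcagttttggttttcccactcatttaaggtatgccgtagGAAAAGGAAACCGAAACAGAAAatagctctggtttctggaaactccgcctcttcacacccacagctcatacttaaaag
Bst2, chr8:71537473-71537612, minus strand: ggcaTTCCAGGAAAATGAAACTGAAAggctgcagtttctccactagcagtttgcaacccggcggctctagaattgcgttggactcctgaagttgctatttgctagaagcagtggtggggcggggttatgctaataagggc
Gbp3, chr3:142559904-142560043, plus strand: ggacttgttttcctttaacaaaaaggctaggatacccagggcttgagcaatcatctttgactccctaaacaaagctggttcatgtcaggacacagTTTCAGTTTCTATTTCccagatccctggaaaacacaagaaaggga
Ifit3, chr19:34583389-34583528, plus strand: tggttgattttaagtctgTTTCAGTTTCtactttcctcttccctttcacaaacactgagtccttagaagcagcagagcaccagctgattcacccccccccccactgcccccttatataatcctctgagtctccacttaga
Irf1, chr11:53769874-53770013, plus strand: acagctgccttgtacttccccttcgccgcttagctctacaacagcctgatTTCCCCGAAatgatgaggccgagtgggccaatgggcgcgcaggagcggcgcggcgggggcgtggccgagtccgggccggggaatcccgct
Rsad2, chr12:26456453-26456592, minus strand: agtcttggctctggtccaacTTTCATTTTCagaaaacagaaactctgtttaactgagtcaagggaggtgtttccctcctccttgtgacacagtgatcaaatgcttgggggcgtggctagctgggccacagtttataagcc

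In these stretches the Isg15 promoter held 3 overlapping ISRE-type matches on the opposite strand, at 78, 72 and 66 bases before the start. The Bst2 promoter held 2 on the opposite strand, overlapped by a GAS-type match. Gbp3 held 2 overlapping ISRE-type matches, at 45 and 39 bases before the start. Ifit3 held 1 here and another further upstream, and Rsad2 held 1, at 120 bases before the start. Irf1 held a GAS-type match at 90 bases before the start and no ISRE-type letters.

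A window from 250 bases before to 50 after a RefSeq start site was available for 31 of the 40 members. An ISRE-type match was found in 18 of 31 members (58.1%), beside 3.99% of all 27025 genes with a window. A GAS-type match was found in 9 of 31 (29.0%), beside 9.55% of all genes. A match is a description of letters and not a bound site. The members were chosen as interferon targets, so these shares describe the choice. Within the group, the median log2 fold change was 0.24 over the 18 tested members with an ISRE-type match, of which 12 were above 0. It was -0.00 over the 12 tested members without one, of which 6 were above 0. The ranges overlapped widely, at -0.54 to 0.80 with a match and -0.96 to 0.48 without. The difference between these medians was not tested. With a GAS-type match the median was 0.16 over 9 members, and without one it was 0.21 over 21.

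**Figure D3:**
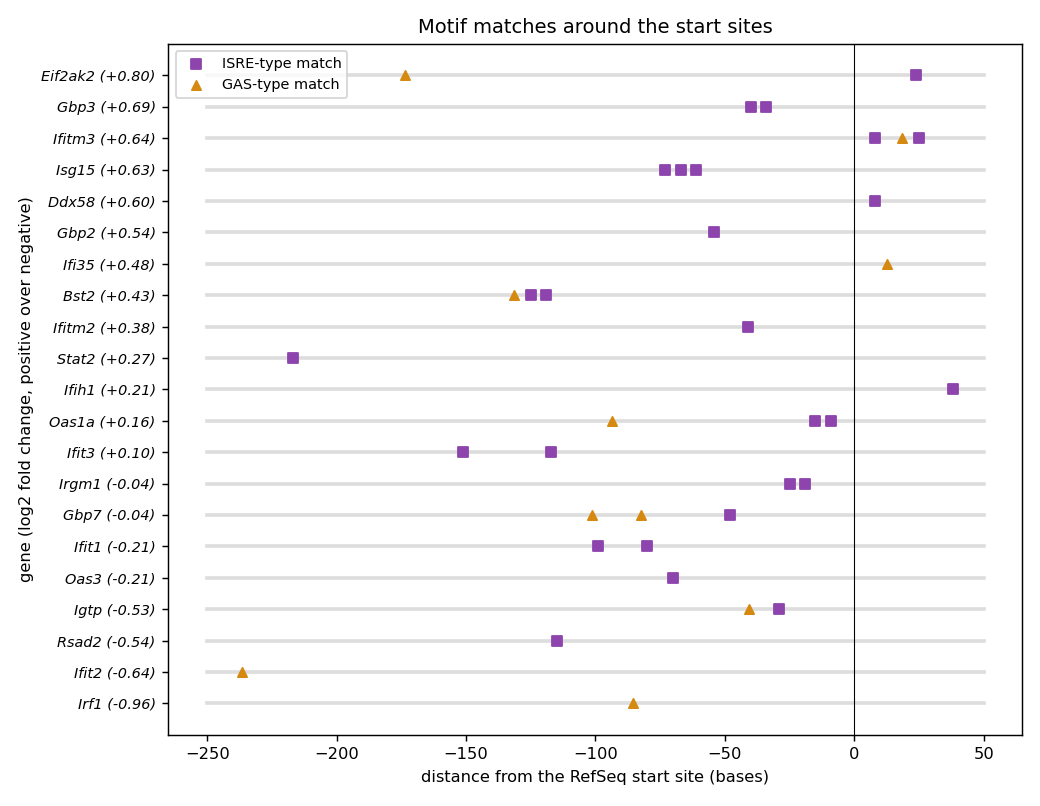
Positions of ISRE-type (purple squares) and GAS-type (orange triangles) matches from 250 bases before to 50 bases after the RefSeq start site, in bases, for the tested members that hold a match. Genes run from the highest log2 fold change of Mmp3-positive over Mmp3-negative cells at the top to the lowest, Irf1 with -0.96, at the bottom, and matches occur along the whole order.

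Transcription factors of the pathway come first. Irf1 (chromosome 11, 53770014 to 53778374), a factor induced through GAS elements that activates many of the other members, had 106 and 77.2 CPM in Mmp3-positive cells, against 191 and 166 CPM in Mmp3-negative cells. It was the lowest member relative to Mmp3-negative cells, with a mean 1.95-fold lower and no overlap of the groups. Its log2 fold change was -0.96 with edgeR (SE 0.25, edgeR adjusted p = 0.480) and -1.01 with DESeq2 (DESeq2 adjusted p = 0.000723). With a library left out the edgeR value ranged from -1.21 to -0.76, its sign being nearly fixed by the lack of overlap. Stat2, the transactivating part of ISGF3, had 555 and 627 CPM in Mmp3-positive cells, against 456 and 522 CPM in Mmp3-negative cells. Both Mmp3-positive libraries were above both others, with a log2 fold change of 0.27 (SE 0.16; edgeR adjusted p = 0.805). Irf9, its DNA-binding partner, had a log2 fold change of 0.33. Irf7, the factor that amplifies interferon-alpha production, had 402 and 345 CPM in Mmp3-positive cells, against 389 and 317 CPM in Mmp3-negative cells, so its groups overlapped. Thus ISGF3's partners and Irf1 had values on opposite sides of 0, and none of them passed the adjusted edgeR threshold.

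The sensors of double-stranded RNA and the kinase that responds to it had log2 fold changes above 0 in all 4 cases, with a median of 0.40. Their summed level was 590 and 543 CPM in Mmp3-positive cells, against 441 and 416 CPM in Mmp3-negative cells. Eif2ak2 (chromosome 17, 78852564 to 78882573) encodes PKR, which halts translation on meeting double-stranded RNA. It had 98.4 and 131 CPM in Mmp3-positive cells, against 65.3 and 66.2 CPM in Mmp3-negative cells. That is a fold change of 1.75 without overlap, with a log2 value of 0.80 (SE 0.26; edgeR adjusted p = 0.480; DESeq2 adjusted p = 0.0281). Ddx58 (chromosome 4, 40203773 to 40239828) encodes RIG-I, the cytosolic sensor of viral RNA ends. It had 193 and 180 CPM in Mmp3-positive cells, against 137 and 110 CPM in Mmp3-negative cells, a fold change of 1.52 without overlap (edgeR adjusted p = 0.480; DESeq2 adjusted p = 0.0400). The related helicase genes Ifih1, which encodes MDA5, and Dhx58, which encodes LGP2, had log2 fold changes of 0.21 and 0.10 with overlapping groups. Neither sign held throughout: without Mmp3-positive replicate 1 they were -0.086 for Ifih1 and -0.027 for Dhx58. Ifih1 was -0.090 without Mmp3-negative replicate 2, and Dhx58 was -0.14 without Mmp3-negative replicate 1.

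Among the membrane proteins, several of which restrict virus entry or release, the 4 tested genes likewise lay above 0. The summed level of all 5, Ifitm1 included, was 1420 and 1465 CPM in Mmp3-positive cells, against 972 and 1124 CPM in Mmp3-negative cells. Ifitm3 (chromosome 7, 141009586 to 141010770), which blocks fusion of virus with endosomes, had 364 and 352 CPM in Mmp3-positive cells, against 231 and 228 CPM in Mmp3-negative cells. The libraries of each group lay close together, and the fold change was 1.56 (log2 0.64, SE 0.16; edgeR adjusted p = 0.480; DESeq2 adjusted p = 9.6e-06). Bst2 (chromosome 8, 71534255 to 71537456) encodes tetherin, which ties budding particles to the cell. It had 932 and 1007 CPM in Mmp3-positive cells, against 652 and 786 CPM in Mmp3-negative cells, a fold change of 1.35 without overlap (edgeR adjusted p = 0.496; DESeq2 adjusted p = 0.0449). Bst2 also marks plasmacytoid dendritic cells. Siglech, a defining marker of those cells, was at 1.26 and 0 CPM in Mmp3-positive cells and at 0 in both Mmp3-negative libraries. Siglech was thus near the floor, and the part of such cells in the Bst2 level was not tested. Ifitm2, a close relative of Ifitm3, had a log2 fold change of 0.38, and Ifi27 one of 0.20. Ifitm3 and its relatives are similar in sequence, and the sum of Ifitm1, Ifitm2 and Ifitm3 was 425 and 391 CPM in Mmp3-positive cells, against 267 and 278 CPM in Mmp3-negative cells.

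Among the interferon-induced GTPases, which attack the vacuoles of intracellular pathogens, the guanylate-binding and immunity-related families were mixed. Gbp3 (chromosome 3, 142560026 to 142573209) had 359 and 403 CPM in Mmp3-positive cells, against 195 and 279 CPM in Mmp3-negative cells. Its fold change was 1.61 without overlap (log2 0.69, SE 0.22; edgeR adjusted p = 0.480; DESeq2 adjusted p = 0.0263). Without Mmp3-negative replicate 2 it was the 1 member to pass edgeR's adjusted threshold (adjusted p = 0.0452). Its neighbours on chromosome 3 were Gbp2, with a log2 fold change of 0.54 and no overlap, and Gbp7, with -0.04. Irgm1 and Igtp, which belong to the immunity-related GTPases, had -0.04 and -0.53. Iigp1, singled out after its values were seen, had the highest log2 fold change of all members, 0.86 (SE 0.50; edgeR adjusted p = 0.802), from 85.8 and 34.2 CPM in Mmp3-positive cells, against 33.3 and 32.6 CPM in Mmp3-negative cells. That value rests on Mmp3-positive replicate 1, without which it was 0.05.

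The ISG15 system attaches the ubiquitin-like protein Isg15 to other proteins, and its enzymes and the related ubiquitin and ADP-ribose enzymes showed no common direction. Isg15 itself (chromosome 4, 156199424 to 156200818) had 163 and 124 CPM in Mmp3-positive cells, against 93.2 and 92.7 CPM in Mmp3-negative cells. The groups did not overlap and the fold change was 1.54 (log2 0.63, SE 0.24; edgeR adjusted p = 0.504; DESeq2 adjusted p = 0.0688). Usp18, the protease that removes Isg15 and dampens receptor signalling, had a log2 fold change of -0.19 with overlapping groups. Trim25, a ubiquitin ligase that acts on RIG-I, had 0.25 without overlap. Xaf1, an interferon-induced gene that favours cell death, had 105 and 89.9 CPM in Mmp3-positive cells, against 132 and 115 CPM in Mmp3-negative cells. It lay lower without overlap, with a log2 fold change of -0.35 (SE 0.23; edgeR adjusted p = 0.865). The ADP-ribosyltransferase genes Parp9 and Parp14 had -0.08 and 0.14 with overlapping groups.

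The IFIT proteins bind viral messages, and viperin, encoded by Rsad2, makes a chain-terminating nucleotide. This role also held Cmpk2 and Samd9l, which are neither IFIT genes nor viperin. In it 5 of 6 genes had log2 fold changes below 0, with a median of -0.33. Of the 5, Rsad2 alone stayed below 0 whichever library was left out, which its lack of overlap nearly fixed beforehand. Without Mmp3-negative replicate 1 the log2 fold changes of Ifit1, Ifit2, Cmpk2 and Samd9l were 0.12, 0.53, 0.042 and 0.21, and Samd9l was also above 0 without Mmp3-positive replicate 2, at 0.055. Rsad2 (chromosome 12, 26442746 to 26456452) had 163 and 142 CPM in Mmp3-positive cells, against 243 and 200 CPM in Mmp3-negative cells. It was 1.45-fold lower without overlap (log2 -0.54, SE 0.20; edgeR adjusted p = 0.50; DESeq2 adjusted p = 0.0212). Its neighbour on chromosome 12, Cmpk2, a nucleotide kinase that supplies viperin's substrate, had -0.44 with overlapping groups. Ifit3 had 963 and 968 CPM in Mmp3-positive cells, against 961 and 844 CPM in Mmp3-negative cells, and a log2 fold change of 0.10. It shares sequence with Ifit3b, and the sum of both was 1119 and 1071 CPM in Mmp3-positive cells, against 1110 and 914 CPM in Mmp3-negative cells. Ifit1 and Ifit2, in the same cluster on chromosome 19, had -0.21 and -0.64, and Samd9l, an antiviral growth regulator, had -0.16. In Ifit2 the 2 Mmp3-negative libraries were far apart, at 55.9 and 15.8 CPM, on both sides of the Mmp3-positive values of 23.7 and 22.1 CPM (a gene described in full after its values were seen).

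The Mx GTPases and the 2′-5′-oligoadenylate synthetases, which switch on RNase L, were level between the groups. Their summed level was 1588 and 1499 CPM in Mmp3-positive cells, against 1504 and 1504 CPM in Mmp3-negative cells. Oasl2 had 614 and 623 CPM in Mmp3-positive cells, against 478 and 590 CPM in Mmp3-negative cells, with a log2 fold change of 0.21 (SE 0.17). Oasl1, which restrains translation of Irf7 in mice, had -0.09, and Oas1a, Oas2 and Oas3 had 0.16, -0.10 and -0.21. Oas1a shares sequence with Oas1g, and the log2 ratio of their sums was 0.07. Mx1 had 0.29 without overlap and its neighbour Mx2 -0.35 with overlap. C57BL/6 mice carry a defective Mx1 allele, so its transcript level does not stand for working protein. The annotation lists Mx2 as a polymorphic pseudogene. Of the 2 remaining members, Ifi35 had 0.48 without overlap and Ifi44 had 0.36 with a large error (SE 0.85).

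**Figure D4:**
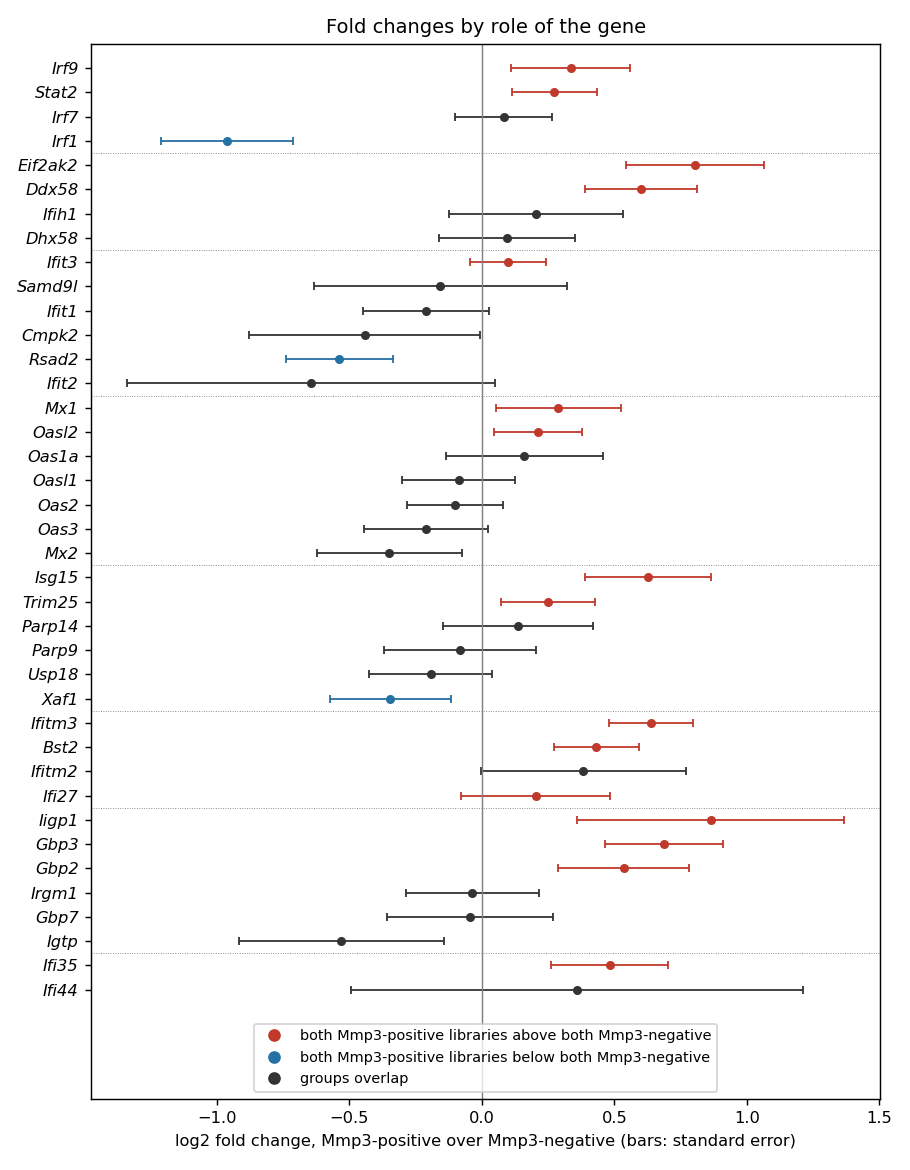
Log2 fold change of Mmp3-positive over Mmp3-negative cells with its standard error (bars) for the 39 tested members, ordered by role. Red and blue points mark the 16 and 3 members whose libraries did not overlap between the groups, and black points the 20 that overlapped; the 4 sensor and kinase genes and the 4 tested membrane genes all lie right of 0.

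Genes that lie next to each other on GRCm38 did not share a sign throughout. The 9 neighbourhoods with at least 2 members within 1000000 bases were the Gbp, Ifit, Oas, Oasl, Ifitm, Mx, Parp, Rsad2 and Dhx58 neighbourhoods. Log2 fold changes of both signs occurred in the Gbp, Ifit, Oas, Oasl, Mx and Parp neighbourhoods. Tested neighbours lay on the same side in the other three, with Rsad2 and Cmpk2 below 0, Dhx58 and Ifi35 above 0, and Ifitm2, Ifitm3 and Irf7 above 0.

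Levels of different genes were compared per transcript length, in TPM, a share of all transcripts in the library. Bst2 had the highest level in each library, with 2238 and 2086 TPM in Mmp3-positive cells, against 823 and 1872 TPM in Mmp3-negative cells. Oasl2, Ifit3 and Ifitm3 followed with means of 751, 665 and 662 TPM over the 4 libraries, and their order differed between libraries. Stat2, Irf7, Xaf1 and Isg15 came next, at 385, 280, 258 and 232 TPM. The lowest members were Samd9l, Ifi44 and Ifitm1, at 16.2, 8.52 and 6.74 TPM. In Mmp3-negative replicate 1 a single transcript took 165817 TPM, against at most 77203 in the others, which lowers the TPM of every other gene there.

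Beyond the 40 genes, the ligands were close to silent: of 20 interferon genes 19 had no count in any library, and Ifnz had 45 counts in Mmp3-negative replicate 2 and 0 in the other 3. A count of 0 allows up to 3 counts per library. Of 9 receptor and Janus kinase genes 8 were tested. None passed edgeR's adjusted threshold, and 7 had log2 fold changes above 0. Jak1, the kinase shared by both interferon receptors, had 259 and 286 CPM in Mmp3-positive cells, against 213 and 208 CPM in Mmp3-negative cells. Jak2, which serves the type II receptor, had 92.7 and 89.7 CPM in Mmp3-positive cells, against 65.4 and 34.3 CPM in Mmp3-negative cells. Tyk2, which serves the type I receptor, was on the other side, with 85.7 and 49.9 CPM in Mmp3-positive cells, against 108 and 147 CPM in Mmp3-negative cells (log2 -0.91, SE 0.34; edgeR adjusted p = 0.504; DESeq2 adjusted p = 0.0474).

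Of 20 sensor, adaptor and regulatory factor genes 17 were tested, with 7 above 0, 10 below and none past edgeR's adjusted threshold. DESeq2 called 1 of the 17 higher and 1 lower, beside 5.46% and 4.18% of all genes. Ikbke, a kinase that activates interferon regulatory factors, had 127 and 106 CPM in Mmp3-positive cells, against 49.6 and 56.6 CPM in Mmp3-negative cells (log2 1.14, SE 0.26; edgeR adjusted p = 0.480; DESeq2 adjusted p = 0.000144). Irf8, a factor of myeloid cells, had 1.26 and 3.51 CPM in Mmp3-positive cells, against 12.6 and 24.9 CPM in Mmp3-negative cells (edgeR adjusted p = 0.577; DESeq2 adjusted p = 0.0149). Of 12 negative regulators 11 were tested, with 6 above 0 and 5 below and none past edgeR's adjusted threshold. DESeq2 called 1 of the 11 lower, beside 4.18% of all genes. Ptpn6, a phosphatase of blood cells, was at 0 and 0.407 CPM in Mmp3-positive cells, against 12.9 and 17.9 CPM in Mmp3-negative cells (edgeR adjusted p = 0.484; DESeq2 adjusted p = 0.000677). Both Irf8 and Ptpn6 had the direction of the pan-leukocyte sum given above, which was mostly Laptm5. The part of leukocytes in Irf8 and Ptpn6 was not tested.

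A further 64 interferon-induced genes outside the 40 included 55 that were tested. Their median log2 fold change was 0.15, with 32 above 0 and 23 below. No gene of this list passed edgeR's adjusted threshold, and DESeq2's Wald test called 3 of 55 higher and none lower, beside 5.46% and 4.18% of all genes. Both Mmp3-positive libraries were above both others for 14 of the 55 and below for 5, beside 22.5% and 17.3% of all genes, so the share above is near that of all genes. Lgals3bp, a secreted glycoprotein and one of the most abundant of the list, had 1209 and 1006 CPM in Mmp3-positive cells, against 905 and 981 CPM in Mmp3-negative cells. Epsti1, named from an epithelial-stromal interaction screen, had 151 and 146 counts in Mmp3-positive cells, against 1 and 0 counts in Mmp3-negative cells. Oas1c had 62 and 30 counts in Mmp3-positive cells and 0 in both Mmp3-negative libraries. The edgeR adjusted p was 0.480 for both Epsti1 and Oas1c. Both were among the 3 genes that DESeq2 called higher (DESeq2 adjusted p = 0.00239 for Epsti1 and 0.0384 for Oas1c).

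Markers of cells other than fibroblasts stood further apart between the groups than the members did. Macrophage and monocyte markers summed to 41.6 and 38.9 CPM in Mmp3-positive cells, against 344 and 155 CPM in Mmp3-negative cells, with 9, 8, 11 and 9 of 12 markers detected in that order. Of the defining macrophage markers, Adgre1 was at 0 in both Mmp3-positive libraries, against 3.08 and 5.88 CPM in Mmp3-negative cells. Dendritic and antigen presentation markers summed to 19.6 and 19.9 CPM in Mmp3-positive cells, against 185 and 77.5 CPM in Mmp3-negative cells. T, NK and B cell markers summed to 5.47 and 8.60 CPM in Mmp3-positive cells, against 30.6 and 1.33 CPM in Mmp3-negative cells. Flt3, Cd209a, Cd3g, Cd52 and Fcer1g were at 0 in all 4 libraries. Endothelial markers summed to 233 and 226 CPM in Mmp3-positive cells, against 459 and 324 CPM in Mmp3-negative cells, and pericyte and smooth muscle markers to 102 and 98.0 CPM, against 772 and 689 CPM. Schwann cell markers summed to 23.9 and 15.4 CPM in Mmp3-positive cells, against 42.6 and 36.8 CPM in Mmp3-negative cells, and adipocyte markers to 11.5 and 9.27 CPM, against 9.06 and 20.8 CPM. Each of these lists except the adipocyte and lymphocyte ones was lower in both Mmp3-positive libraries, while the summed level of the 40 genes was higher in both. Of the 13 fibroblast markers, 10 had log2 fold changes above 0. Without overlap, 7 of the 13 were higher and 2 lower, beside 22.5% and 17.3% of all genes, and 4 overlapped. Pdgfra, a defining fibroblast marker, had 1657 and 1687 CPM in Mmp3-positive cells, against 929 and 1063 CPM in Mmp3-negative cells. Pi16 and Dpp4, markers of one fibroblast state, were the 2 lower ones. Irf1 and Rsad2 had the direction of the leukocyte, endothelial and mural sums. The part of cell makeup in the values of the 8 members with a small p was not tested.

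**Figure D5:**
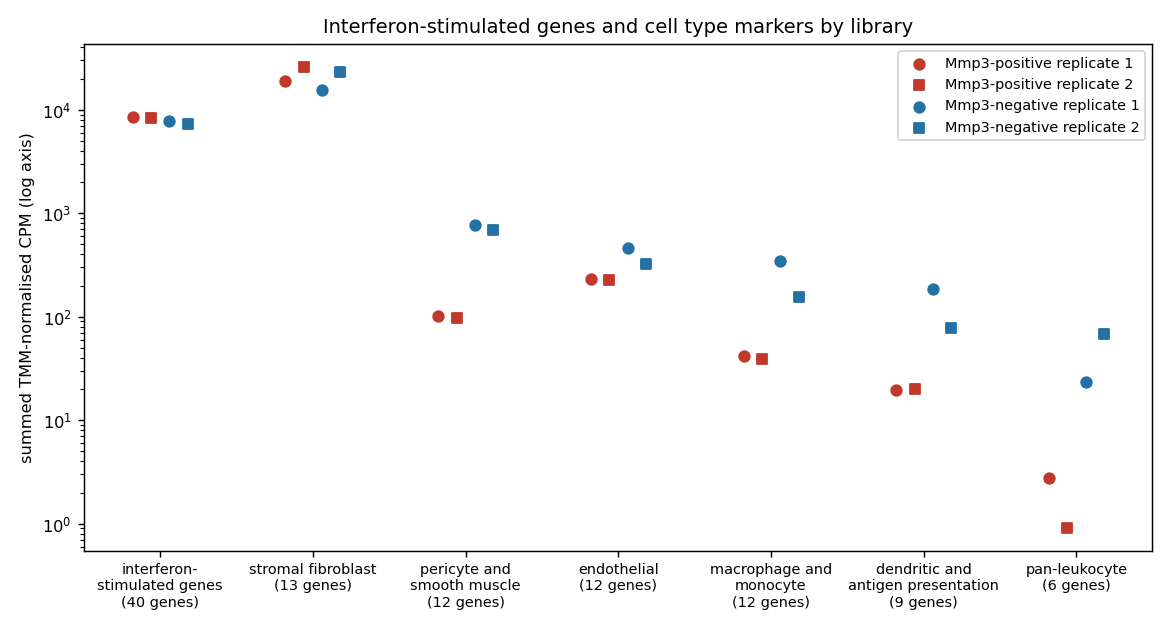
Summed TMM-normalised CPM (log axis) of the 40 interferon-stimulated genes and of 6 marker lists in each library, Mmp3-positive in red and Mmp3-negative in blue. The interferon-stimulated genes lie between 7316 and 8583 CPM in every library, while the pericyte and smooth muscle markers lie at 102 and 98.0 CPM in Mmp3-positive cells, against 772 and 689 CPM in Mmp3-negative cells.

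The members had 180 annotated transcripts, 156 of them with a count. Of these, 57 held more than 100 counts in 1 library and 0 in the other library of the same group, so no isoform is described. Summed counts do not depend on this split within a gene, but summed TPM does, because isoforms differ in length. Ifit2 had 12.7 and 25.6 TPM in the 2 Mmp3-negative libraries, the reverse of their order in CPM. Samd9l had 8.99 and 13.7 TPM in Mmp3-positive cells, against 35.1 and 6.79 TPM in Mmp3-negative cells, while its CPM were 35.8 and 25.9 in Mmp3-positive cells, against 42.2 and 26.6 in Mmp3-negative cells.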

How the data were processed

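The sources were RNA-seq libraries of Mmp3-positive (n = 2) and Mmp3-negative (n = 2) cells. The authors deposited kallisto (0.45.0, GRCm38, per the submitters' processing notes) estimated counts and TPM per transcript, with transcript lengths. For the transcript set, the strand setting and trimming, the value is not given in the sources used here. Transcripts were assigned to GENCODE M21 genes without version (113580 of 115270 matched). The unmatched 0.729% to 2.08% of counts per library were left out. The deposited estimated counts and TPM were each summed by gene, and the counts rounded.

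edgeR 4.0.16 (R 4.3.3) was run with filterByExpr (minimum count 10), TMM and the two-sided quasi-likelihood test, with Benjamini-Hochberg adjustment over 14185 genes and a threshold of 0.05. It was tested on simulated data. CPM are TMM-normalised, and SE is the log2 fold change over the root of F. Alternatives were DESeq2 1.42.0 size factors and Wald test, no filter, the set number as a block, each library left out, and limma 3.58.1 on log2(TPM + 1). Strand was not stated for the counting, so antisense or overlapping genes may share counts.

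The 40 members and all lists were chosen with earlier results of these data known. Values in every library are given for members with an unadjusted p under 0.05, for the 8 highest in TPM and for those without overlap and over 1 in log2 size. Others are named with their fold change, except where said. Of each pathway list the 2 smallest p and 2 highest TPM could be named, and of each marker list up to 3 defining markers. Promoter sequences came from RefSeq on GRCm38.p6. Both strands were searched, matches could overlap, and a palindromic match was counted once.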

Additional observations from a re-analysis of the deposited data

Results flagged for a closer look

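Ifitm1, a membrane protein of the IFITM family and the 1 member outside the fit, had 0 counts in both Mmp3-positive libraries, against 0 counts in Mmp3-negative replicate 1 and 138 in replicate 2. Ifnz, an interferon gene also outside the fit, had 0 counts in both Mmp3-positive libraries, against 0 in Mmp3-negative replicate 1 and 45 in replicate 2. Both were listed because they lie outside the comparison and stand above the 3 counts that a count of 0 allows. That limit covers counting error only. Each appears in a single library and has no replicate check.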

How the results depend on the processing

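Counts of calls depended strongly on the method. Members whose groups did not overlap kept their sign, while most of those with overlapping groups changed it in some alternative. edgeR called 1 gene higher and 2 lower in Mmp3-positive cells. Without a filter it called 4 and 23, DESeq2's Wald test 775 and 593, and limma on log2(TPM + 1) 0 and 0 (1064 genes at an unadjusted p under 0.05). Leaving out 1 library gave 1 to 237 higher and 1 to 116 lower. Of the members, 0 were called either way by edgeR or limma, 5 higher and 2 lower by DESeq2, and 0 to 1 higher with a library left out. Where 1 library is left in a group, its spread is taken from the other group. The members' median of 0.14 was 0.38 with limma, where the median of all genes was 0.29 instead of 0.02. Over the genes tested, deviations of same-numbered libraries from their group means correlated at 0.024. With 2 libraries a group the 2 pairs mirror each other, so this value does not tell whether a set pairs the samples. With a replicate block for the set, edgeR called 1 gene higher and 4 lower, no member, and the members' median was 0.18 beside 0.12 for all genes.

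22 members kept their sign in every alternative (17 higher, 5 lower). They were the 16 higher and 3 lower members without overlap, together with Ifitm2, Mx2 and Oas3. Lack of overlap nearly fixes the sign when a library is left out, so most of this count is no check of stability. All 8 with a small p kept their sign whichever library was left out. Their groups did not overlap, which nearly fixes that outcome with 2 libraries a group, so it is no separate check. With limma 6 changed sign: Ifit1 0.11, Oas2 0.27, Usp18 0.16, Parp9 0.096, Gbp7 0.24 and Irgm1 0.16. All 6 lay below the median of all genes in that fit, 0.29. The cause of the sign changes was not tested. On leaving out a library 16 changed sign. Their ranges of log2 fold change were -0.058 to 0.23 for Irf7, -0.48 to 0.12 for Ifit1, -1.28 to 0.53 for Ifit2, -0.11 to 0.49 for Oas1a, -0.21 to 0.014 for Oas2, and -0.28 to 0.13 for Oasl1. They were -0.090 to 0.57 for Ifih1, -0.14 to 0.38 for Dhx58, -0.049 to 0.93 for Ifi44, -0.42 to 0.077 for Usp18, and -0.29 to 0.16 for Parp9. They were -0.20 to 0.57 for Parp14, -0.32 to 0.29 for Gbp7, -0.96 to 0.089 for Igtp, -0.81 to 0.042 for Cmpk2, and -0.45 to 0.21 for Samd9l. With 2 libraries a group, edgeR called none of the members, whose log2 fold changes reached 0.96 in size.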
